A study of Mus musculus with 2 samples.

Results

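The cadherins and protocadherins of mesenchymal cells with and without Dicer were taken from a table of messenger RNA in cultured murine cells. Members were all gene symbols of the form Cdh plus a number, together with all symbols that begin with Pcdh, and 94 of the 23227 symbols matched. They comprised 23 Cdh genes, 12 protocadherins outside the gene clusters and 59 clustered protocadherins (15 Pcdha, 22 Pcdhb and 22 Pcdhg). Both groups were immortalised monoclonal lines labelled as adult mesenchymal stem cells and as fibroblasts. The wild-type line (WT) carried floxed alleles (Dicer f/f), and the knockout line (KO) lacked the gene (Dicer -/-). Both lines grew in Alpha-MEM to which 10% fetal bovine serum and pen/strep had been added, and were lysed below confluence. The sources used here do not give how the lines were immortalised or how the floxed alleles were removed. Because each genotype was 1 clone, clone and genotype cannot be told apart.

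Cadherins are membrane proteins with repeated extracellular domains that bind calcium and the same or related cadherins on a neighbouring cell. Classical cadherins bind catenins inside the cell, which tie the junction to actin; N-cadherin (Cdh2) and cadherin 11 (Cdh11) are the classical cadherins for which mesenchymal cells are best known. Clustered protocadherins are encoded by tandem variable exons, each with a promoter of its own, and in neurons single cells use different members as an identity code. Dicer cuts microRNA precursors into mature microRNAs, which pair with messenger RNAs chiefly through their seed, and the comparison addressed what differed in messenger RNA without it. MicroRNAs themselves were not measured in this polyA RNA.

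The labels list 1 sample per genotype, but each deposited mean resolved into the whole reads of 2 libraries, called here the deeper and the shallower library of WT or KO by their total. The totals ran from 14135422 to 15718369 reads in genes, and 3 reads equalled between 2.76 and 3.36 normalised reads per library. How these libraries relate is not in the labels, and their spread may be technical. The order of the names in the deposited comparison decided which column was WT and which KO, and every direction rests on that reading. The targeted gene Dicer1 held 804 and 943 normalised reads in the deeper and shallower WT libraries and 573 and 557 in those of KO. Both KO libraries were lower, with a ratio of 0.647, and a count over the whole gene does not test the deleted part. Of 8 mesenchymal markers 7 were detected and Thy1 had no read in any library, while Col1a1 and Col1a2 were called lower in KO (ratios of 0.432 and 0.486). Markers of other cell types summed to few reads in each library. Endothelial markers summed to between 5.61 and 17.9 normalised reads over 6 genes, epithelial markers to between 5.52 and 11.9 over 8, neuronal markers to between 26.03 and 50.4 over 7, and Cldn5, Epcam, Cldn4, Rbfox3 and Stmn2 had none. Glial markers summed to between 54.9 and 85.5 over 6 genes, with Sox10 at 0 and Mbp called higher (2.71-fold). Skeletal muscle markers summed to between 36.6 and 54.3 over 6 genes, with Myod1, Myf5 and Pax7 at 0, and haematopoietic markers to between 28.9 and 50.7 over 6.

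Most of the family had no or few counted reads at this depth, and tested members were called in both directions. No read was listed for 25 members, 52 had reads but stayed under a mean of 20 normalised reads over both genotypes, and 17 were tested. A call of higher or lower in KO needed a ratio of means of 2 or more, or of 0.5 or less, and a 95% exact (Clopper-Pearson) counting interval without 1. Such intervals cover counting error only and leave out the spread between libraries. These reads are not independent molecules, so the intervals may be too narrow even for counting error. All intervals given below are of this kind. By this rule 6 members were called higher, 3 lower and 8 neither, against 8.92% of all 11710 tested genes called higher and 8.56% called lower. Some members reached the minimum only through the genotype in which they were high, so the counts describe the tested members and not the family. In 9 of the 17 both KO libraries exceeded both WT libraries and in 5 both were lower, where 30.4% and 28.8% of all tested genes did so. The median log2 ratio of the tested members was 0.60, against -0.01 over all tested genes. By the authors' deposited table, at an adjusted p of 0.1, 2 members were higher (Cdh11 and Pcdhgb8) and 2 lower (Cdh18 and Pcdhga5), while 3.91% and 3.96% of the 17303 symbols with reads were higher and lower.

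**Figure D1:**
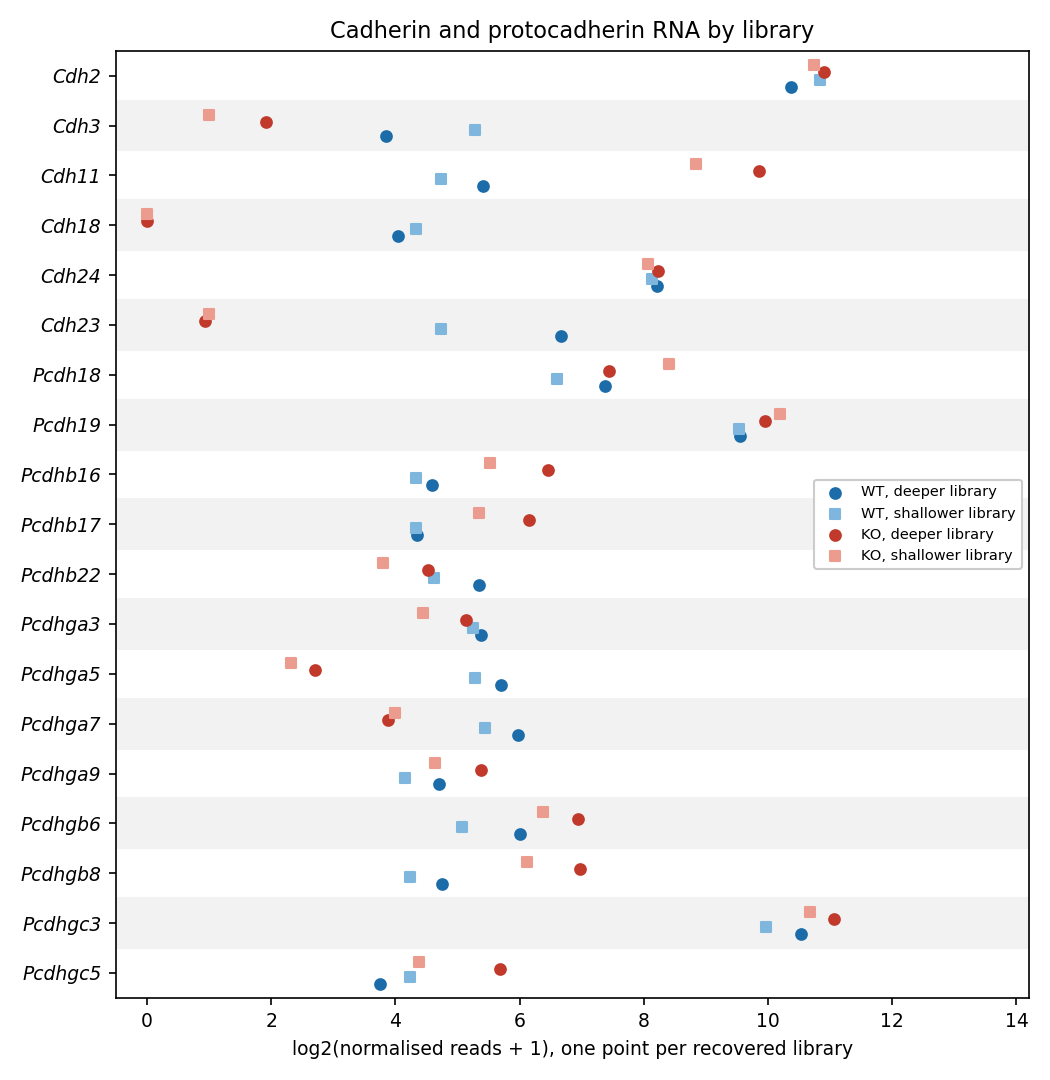
Normalised reads, as log2(normalised reads + 1), of the 17 tested members and of Cdh3 and Cdh18 in each of the 4 recovered libraries (blue: WT, red: KO; circles: deeper library, squares: shallower library). Both KO points of Cdh11 lie far to the right of the WT points, those of Cdh3, Cdh18, Cdh23, Pcdhga5 and Pcdhga7 lie to the left, and the points of Cdh2 and Cdh24 lie together.

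Cdh11, a type II classical cadherin also known as OB-cadherin from osteoblasts, was the member with the highest ratio. It held 41.4 and 25.8 normalised reads in the deeper and shallower WT libraries and 924 and 459.7 in those of KO. Both KO libraries were far above both WT libraries, and in each genotype the shallower library held the lower value. From RNA of whole cultures, fewer cells with a transcript and less of it per cell cannot be told apart, here and for every gene below. The mean was 20.6-fold higher in KO (interval 16.1 to 26.8), and the ratio ran from 13.7 (without the deeper KO library) to 27.5 when each library was left out in turn. The authors' deposited table gave an adjusted p of 0.00221, and limma over the 4 libraries gave 0.0157. Cdh11 took 2.31% and 1.15% of all Cdh reads in the WT libraries and 29.3% and 18.7% in the KO libraries.

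The 3' untranslated region of the longest Cdh11 transcript (2219 bases) held 2 of the 7-base seed matches searched, 1 for miR-200b and 1 for miR-9. Both are shown because Cdh11 had the highest ratio, each beside the mature microRNA from RefSeq with the seed (bases 2 to 8) in capitals and the match in capitals in the transcript.
mmu-miR-200b-3p: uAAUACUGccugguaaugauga
Cdh11, miR-200b match: acatacaaatatCAGTATTctgacatg
mmu-miR-9-5p: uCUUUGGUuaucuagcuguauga
Cdh11, miR-9 match: cttgtacaacggACCAAAGgtccagac
CAGTATT occurred in 16.0% and ACCAAAG in 14.3% of the 11321 tested genes with an annotated 3' untranslated region. A match describes letters in the transcript and is not a measured site.

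Cdh2, N-cadherin, was the Cdh gene with the most reads and showed no separation of the genotypes. It held 1318 and 1823 normalised reads in WT and 1913 and 1719 in KO. The libraries of the genotypes overlapped. The ratio was 1.16 (interval 1.102 to 1.21), with an adjusted p of 1 in the authors' deposited table. Per kilobase of the longest transcript, the Cdh2 level was 324 normalised reads in WT and 375 in KO, against 5.95 and 123 for Cdh11. Within a library the Cdh2 level per kilobase was thus 37.1 and 82.4 times that of Cdh11 in WT but 2.41 and 4.36 times in KO. Cdh2 took 73.4% and 81.3% of all Cdh reads in the WT libraries and 60.6% and 69.8% in the KO libraries.

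Cdh24, another type II cadherin, held 297 and 280.3 normalised reads in WT and 299 and 269 in KO. The 4 values were alike across the genotypes. Its ratio was 0.983 with an interval from 0.875 to 1.11, which lies within 2-fold in either direction but covers counting error only.

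Cdh23, called lower by size, and Cdh18, lower by the authors' deposited table, were low in WT as well. Cdh23, an unusually long cadherin of the tip links of hair cells, held 101 and 25.8 normalised reads in WT and 0.920 and 0.995 in KO. That is 128 reads in the WT libraries together against 2 in KO, so the gene reached the minimum through WT alone. The ratio was 0.0151 (interval 0.00181 to 0.0556) and was called lower, while the authors' deposited table gave an adjusted p of 0.133. limma gave an adjusted p of 0.0392, and 0.0565 with a pseudocount of 5 in place of 1. The deeper WT library carried most of the signal: without it the gene fell under the minimum, with a ratio of 0.0371. Without the shallower WT library the ratio was 0.00946.

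Cdh18, a type II cadherin best known from the nervous system, had 16 and 17 reads in the WT libraries and none in either KO library. Its mean of 8.62 normalised reads stayed under the minimum, so it was not tested by size. Set against a floor of 3 reads over the KO libraries, it was at least 12-fold lower in KO, while its exact interval, which also counts the error of the WT reads, reached down to 9.23-fold. Its adjusted p in the authors' deposited table was 0.0225. As a ratio the floor's bound was 0.0833, or 0.173 when only the shallower KO library set the floor. Cdh3, P-cadherin, is singled out after its values were seen. It held 13.5 and 38.1 normalised reads in WT and 2.76 and 0.995 in KO. Its mean of 13.8 was also under the minimum. The Cdh3 ratio was 0.0727 (interval 0.0191 to 0.199), with an adjusted p of 0.206 in the authors' deposited table. In all 3 genes the KO libraries were below both WT libraries.

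The start sites of Cdh18 and Cdh23 were covered by RefSeq promoter windows of 300 bases (250 before to 50 after the annotated start, GRCm38.p6, which is not the authors' build). They are shown because both genes were at or near 0 reads in KO, with CG in capitals. Which start either gene used in these cells was not measured.
Cdh18, chr15:23036213-23036512, plus strand: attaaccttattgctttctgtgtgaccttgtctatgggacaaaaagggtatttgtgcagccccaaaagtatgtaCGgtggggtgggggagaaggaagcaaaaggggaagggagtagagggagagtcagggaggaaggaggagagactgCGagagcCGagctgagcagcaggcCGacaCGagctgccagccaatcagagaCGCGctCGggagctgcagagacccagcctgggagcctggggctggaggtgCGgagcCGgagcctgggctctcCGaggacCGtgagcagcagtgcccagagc
Cdh23, chr10:60696441-60696740, minus strand: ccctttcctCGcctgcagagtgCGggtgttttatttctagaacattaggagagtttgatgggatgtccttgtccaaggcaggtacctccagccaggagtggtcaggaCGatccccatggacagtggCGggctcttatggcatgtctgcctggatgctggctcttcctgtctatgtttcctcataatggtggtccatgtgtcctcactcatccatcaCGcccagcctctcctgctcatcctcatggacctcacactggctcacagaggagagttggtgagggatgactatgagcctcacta
The Cdh18 window held 12 CG and the Cdh23 window 5, against a median of 7 over all 32851 windows of this length, of which 94.6% held at least 1.

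The remaining Cdh genes had little or no RNA. Of the 23 genes 7 had no read and 12, Cdh3 and Cdh18 among them, had reads under the minimum, with 150 reads in all over the 4 libraries. E-cadherin (Cdh1), the epithelial cadherin, had 6 reads in WT and 1 in KO, and VE-cadherin (Cdh5), the endothelial cadherin, had 5 and 10. Cdh17 had 14 reads in each genotype, Cdh22 had 6 and 0, and Cdh13 had 2 and 1. Among the 13 type II genes 6 had no read in any library, and all 5 type I genes had at least 1. Without a minimum 3 of the 12 (Cdh3, Cdh18 and Cdh22) would be called lower and 0 higher. With the tested genes that makes 4 lower and 1 higher of the 16 Cdh genes with reads, where 9.11% and 8.43% of all genes with reads would be. For the other 9 of the 12 a genotype difference was not detectable at this depth.

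Protocadherins outside the clusters were represented by 2 abundant genes of the delta-2 group, Pcdh19 and Pcdh18, whose cytoplasmic tails share conserved motifs. Pcdh19, a gene on the X chromosome that is mutated in an epilepsy that mainly affects girls, held 749.9 and 742 normalised reads in WT and 988 and 1173 in KO. Both KO libraries were above both WT libraries, which were close to each other. The ratio of 1.45 (interval 1.36 to 1.55) did not reach 2-fold. The authors' deposited table gave an adjusted p of 0.626, and limma gave 0.126, or 0.0304 with depth rank (deeper or shallower library) as a block.

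Pcdh18 held 166 and 96.4 normalised reads in WT and 172 and 339 in KO. The deeper KO library was barely above the deeper WT library, and the shallower KO library stood apart from the other 3. The ratio was 1.95 (interval 1.68 to 2.27), just under the limit, with an adjusted p of 0.707 in the authors' deposited table. Between the deeper libraries alone the ratio was 1.04 and between the shallower libraries 3.52. Scaled by total reads it was 2.01, and leaving out the deeper WT or the deeper KO library made it 2.65 or 2.59, past the limit in each case.

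The transcripts of both genes held seed matches, shown because these were the protocadherins outside the clusters with most reads. Pcdh19 had 1 match each for let-7, miR-200a and miR-34 in a 3' untranslated region of 5128 bases, and Pcdh18 had 1 for miR-9 in 1971 bases.
mmu-let-7a-5p: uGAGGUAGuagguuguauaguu
Pcdh19, let-7 match: ctgtactgaataCTACCTCatgcaaaa
mmu-miR-200a-3p: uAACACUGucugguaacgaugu
Pcdh19, miR-200a match: cacttcctgattCAGTGTTttcccaat
mmu-miR-34a-5p: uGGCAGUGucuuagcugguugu
Pcdh19, miR-34 match: atgtagagcagcCACTGCCtgcaatag
Pcdh18, miR-9 match: atatccttttcaACCAAAGttactgct
CTACCTC occurred in 10.7%, CAGTGTT in 21.4% and CACTGCC in 17.7% of tested genes with such a region. The median length of that region over the tested genes was 1210 bases, so the Pcdh19 region is far longer than most.

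The other 10 protocadherins outside the clusters stayed under the minimum. Pcdh7, Pcdh8, Pcdh11x and Pcdh15 had no read. Pcdh1 had 23 reads in WT and 21 in KO, and Pcdh10 had 8 reads in KO and none in WT, which makes it at least 2.40-fold higher against the floor, with an exact interval that reached down to 1.54-fold. It is the 1 gene of the 10 that would be called higher without a minimum. Pcdh9, Pcdh12, Pcdh17 and Pcdh20 had 2 reads each over the 4 libraries.

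The 3 protocadherin clusters lie side by side on chromosome 18 and differed widely in counted reads. Almost no reads were counted for the alpha cluster: 13 of its 15 symbols had no read, and Pcdha9 and Pcdha10 had 6 reads together. In the beta cluster 1 of 22 genes (Pcdhb1) had no read and 3 were tested. All 22 gamma genes had reads and 8 were tested. Gamma isoforms share constant 3' exons and clustered genes resemble one another. Counts per isoform are thus uncertain where the counting, whose settings the labels leave out, could split or discard shared reads. The zeros of the alpha cluster carry the same uncertainty.

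**Figure D2:**
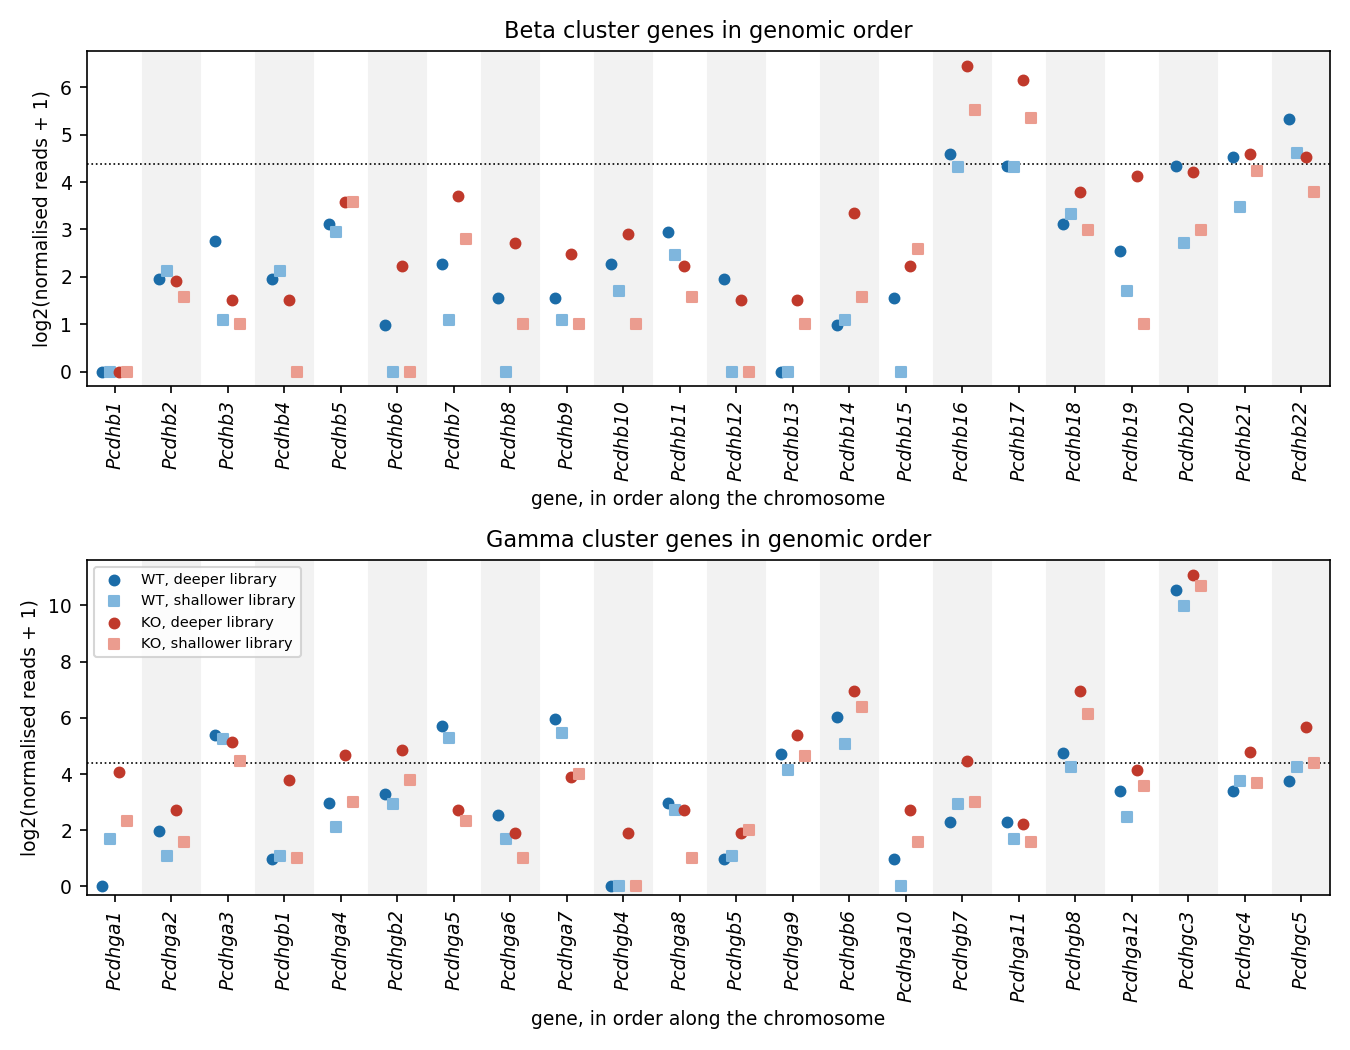
Normalised reads, as log2(normalised reads + 1), of the beta genes (top) and gamma genes (bottom) in their order along the chromosome, in each of the 4 recovered libraries (blue: WT, red: KO; circles: deeper library, squares: shallower library; dotted line: 20 normalised reads). In the gamma cluster Pcdhga5 and Pcdhga7 are lower in KO while Pcdhgb6 and Pcdhgb8 are higher, and Pcdhgc3 stands far above the rest.

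Among the 11 tested clustered genes 5 were called higher in KO, 2 lower and 4 neither, where 8.92% and 8.56% of all tested genes were called higher and lower. Both KO libraries exceeded both WT libraries in 6 genes and were below them in 4, against 30.4% and 28.8% of all tested genes. The count called higher dropped to 3 with the deeper KO library left out, where 875 of all 11682 tested genes were called higher. The median log2 ratio was 0.62 over these 11 genes. With limma at an adjusted p of 0.05, 0 were called higher and 1 lower (Pcdhga5), where 4.61% and 4.14% of all tested genes were. The counts were the same with a pseudocount of 5 in place of 1, against 4.62% and 4.27%. With depth rank as a block 5 were higher and 2 lower, against 18.5% and 17.7% of all tested genes. These 5 were not the same 5 as by size. By limma with this block Pcdhgc3, called neither by size, passed (adjusted p of 0.0144) and Pcdhgc5 did not (0.207). The deeper library had the higher normalised value in 10 of the 11 genes in WT and in 10 in KO, while over all tested genes it did so in 51.6% and 51.3%. The part of this difference in the results was not tested.

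Pcdhgc3, a C-type gamma gene, held most gamma reads. It held 1481 and 1004 normalised reads in WT and 2137 and 1631 in KO. Both KO libraries were above both WT libraries, and the libraries of 1 genotype were nearly as far apart as the genotypes. The ratio was 1.52 (interval 1.44 to 1.60). The authors' deposited table gave an adjusted p of 0.514, and limma gave 0.206, or 0.0144 with depth rank as a block. Pcdhgc3 made up 81.3% and 79.9% of gamma reads in WT and 79.1% and 84.4% in KO. Per kilobase of the longest transcript its level was 265 normalised reads in WT and 402 in KO, in the range of Cdh2, whose per-library levels on that scale overlapped with those of Pcdhgc3.

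Pcdhga5 was the tested clustered gene with the lowest ratio. It held 51.1 and 38.1 normalised reads in WT and 5.52 and 3.98 in KO. The KO libraries were far below the WT libraries, with 10 reads together against 87. It was 9.39-fold lower in KO (interval 4.87 to 20.3), and it reached the minimum through WT. The authors' deposited table gave an adjusted p of 0.00790, and limma gave 0.0367. Pcdhga7, 2 places further along the cluster, held 61.7 and 42.6 normalised reads in WT and 13.8 and 14.9 in KO. Again neither KO library came near those of WT. Pcdhga7 was 3.63-fold lower (interval 2.40 to 5.65), with an adjusted p of 0.120 in the authors' deposited table and 0.0740 with limma, or 0.0235 with depth rank as a block.

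Pcdhgb8 lay at the other extreme. It is listed by RefSeq as a transcribed pseudogene, while GENCODE M21 gives it a protein-coding transcript of 2796 bases. Among the B-type genes it lies nearest the C-type genes in the cluster. It held 26.03 and 17.9 normalised reads in WT and 124 and 68.7 in KO. Each KO library held more than the WT libraries together. The mean was 4.39-fold higher in KO (interval 3.14 to 6.25), with an adjusted p of 0.0598 in the authors' deposited table and 0.0655 with limma, or 0.00855 with depth rank as a block. Pcdhgb6 held 63.6 and 32.5 normalised reads in WT and 121 and 82.6 in KO. Its libraries did not overlap, but the deeper WT and the shallower KO library were close. Its ratio of 2.12 (interval 1.66 to 2.73) fell to 1.60 when the shallower WT library was left out and to 1.72 when the deeper KO library was. Its adjusted p in the authors' deposited table was 0.342, and limma gave 0.194, or 0.0310 with depth rank as a block.

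Pcdhgc5, the last C-type gene, held 12.5 and 17.9 normalised reads in WT and 50.6 and 19.9 in KO. Only the deeper KO library stood apart. The ratio was 2.31 (interval 1.49 to 3.68) but 1.31 with the deeper KO library left out and 1.96 with the deeper WT library left out. The adjusted p in the authors' deposited table was 0.710, and limma gave 0.331, or 0.207 with depth rank as a block. Pcdhgc5 reached the minimum through KO, with means of 15.2 in WT and 35.2 in KO. Pcdhga3 and Pcdhga9 were called neither, with ratios of 0.709 and 1.54. For Pcdhga3 the values were 40.5 and 37.0 in WT and 34.0 and 20.9 in KO, and for Pcdhga9, whose libraries overlapped, they were 25.1 and 16.8 in WT and 40.5 and 23.9 in KO.

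Among gamma reads outside Pcdhgc3, the shares of Pcdhga3, Pcdhga5, Pcdhga7 and Pcdhgb8, chosen after their values were seen, differed between the lines by more than between libraries of 1 line. Pcdhga5 took 15.01% and 15.11% of these reads in WT and 0.979% and 1.32% in KO. Pcdhga7 took 18.1% and 16.9% in WT and 2.45% and 4.97% in KO, and Pcdhga3 took 11.9% and 14.7% in WT and 6.04% and 6.95% in KO. The share of Pcdhgb8 was 7.65% and 7.11% in WT and 22.02% and 22.8% in KO. The share of Pcdhgb6 was 18.7% and 12.9% in WT and 21.5% and 27.5% in KO, so its libraries of 1 line differed by more than the nearest WT and KO libraries. These shares compare genes within a library and do not depend on how libraries were scaled, but a fall in some shares by itself raises the others. The sum over the 21 genes without Pcdhgc3 was 340.3 and 252 normalised reads in WT and 564 and 301 in KO, a ratio of 1.46 (interval 1.31 to 1.62), and the shallower KO library lay below the deeper WT library.

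Beta genes have a single exon each and share no constant exon. Pcdhb16 held 23.1 and 19.1 normalised reads in WT and 86.5 and 44.8 in KO, a ratio of 3.11 (interval 2.18 to 4.52). Its neighbour Pcdhb17 held 19.3 and 19.1 in WT and 69.9 and 39.8 in KO, a ratio of 2.86 (interval 1.96 to 4.26). In both genes the WT libraries were alike and the KO libraries were higher by unequal amounts. Both were called higher, but the authors' deposited table gave adjusted p of 0.232 and 0.238, and limma 0.121 and 0.126, or 0.0283 and 0.0417 with depth rank as a block. Pcdhb22, the last gene of the cluster, held 39.5 and 23.5 in WT and 22.1 and 12.9 in KO. It was called neither, with a ratio of 0.555 (interval 0.359 to 0.848), but passed 2-fold with a ratio of 0.443 when the shallower WT library was left out and of 0.410 when the deeper KO library was. The beta sum was 180.3 and 113 normalised reads in WT and 318 and 163 in KO, a ratio of 1.64 (interval 1.42 to 1.90), although the shallower KO library lay below the deeper WT library.

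**Figure D3:**
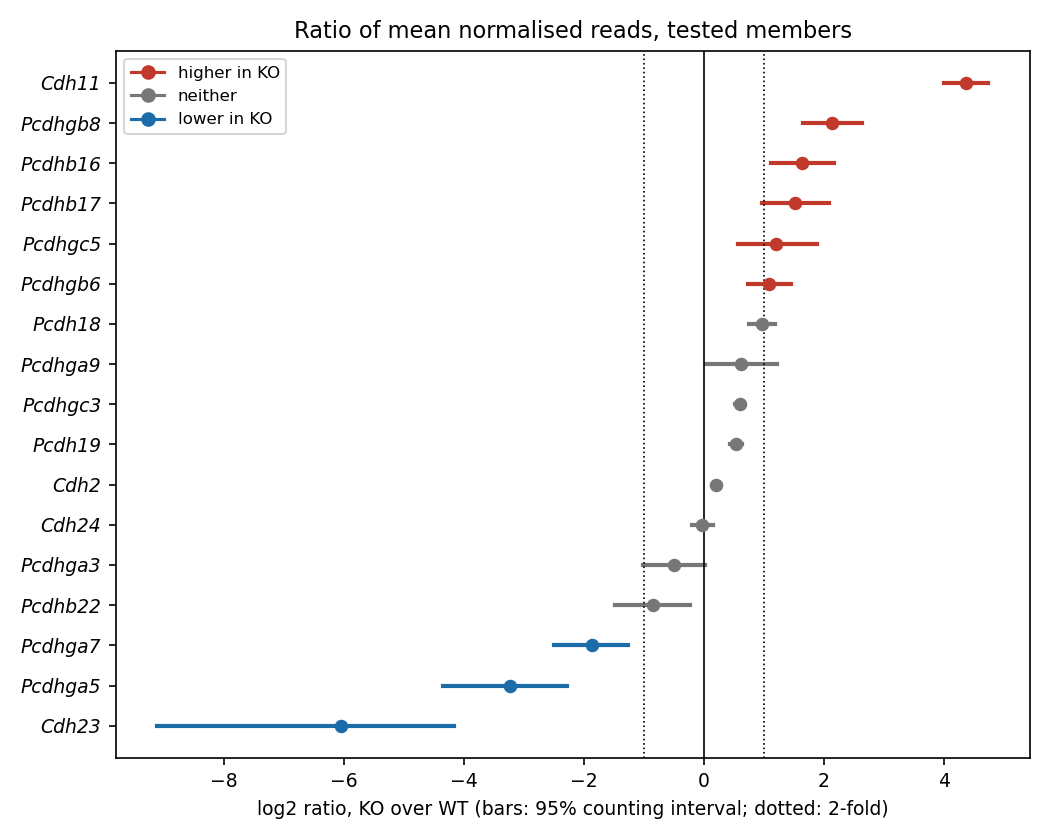
Log2 ratio of mean normalised reads, KO over WT, of the 17 tested members, with the 95% exact counting interval as a bar (red: called higher, blue: called lower, grey: neither; dotted lines: 2-fold). Cdh11 stands at 4.36 and Pcdhgb8 at 2.13, while Cdh23, Pcdhga5 and Pcdhga7 stand at -6.05, -3.23 and -1.86; the bars leave out the spread between libraries.

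A further 34 clustered genes had reads but stayed under the minimum, with 733 reads in all. In 12 of them both KO libraries exceeded both WT libraries and in 4 they were below, where 15.5% and 20.2% of the 5593 genes with reads under the minimum did so. Without a minimum 9 more clustered genes would be called higher (Pcdhb7, Pcdhb14, Pcdhb19, Pcdhga1, Pcdhga4, Pcdhga10, Pcdhgb1, Pcdhgb2 and Pcdhgb7) and 0 lower. With the tested genes that makes 14 higher and 2 lower of the 45 clustered genes with reads. Of all 17303 genes with reads 8.43% and 9.11% would be. Pcdhga1, the first gene of the gamma cluster, had 2 reads in WT and 21 in KO, of which 17 came from the deeper KO library. Pcdhgb2 had 15 and 43, and Pcdhga4 had 10 and 34.

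Seed matches of clustered genes repeat one another because their transcripts do. The tested gamma genes with an annotated region shared the same constant 3' untranslated region of 1744 bases (1741 for Pcdhga9), with 1 miR-34 match, whether they were higher, lower or neither. Pcdhb16 and Pcdhb17 had 1 miR-200b match each, and Pcdhb22 had 1 each for miR-200b, miR-200a and miR-21 (ATAAGCT, in 8.04% of tested genes with such a region). Over all members 13 of the 16 tested genes with an annotated region held at least 1 of the 6 matches searched, 7 of them in the shared gamma region, against 52.4% of all tested genes. Cdh2, Cdh23 and Cdh24 held none. Cdh3, under the minimum, held 1 miR-34 match, which is shown because both KO libraries of that gene were below those of WT.
Cdh3, miR-34 match: ttggggaggggtCACTGCCtttttttt

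Catenins and their relatives link classical cadherins to actin and to signalling. Of 10 genes 7 were tested, 3 of them called higher, 0 lower and 4 neither (8.92% and 8.56% of all tested genes were higher and lower), with a median log2 ratio of 0.44. The same 3 were higher in the authors' deposited table, against 3.91% of symbols with reads. Plakoglobin (Jup), which binds the same cadherin tails as beta-catenin, held 329 and 191 normalised reads in WT and 1704 and 1044 in KO, 5.29-fold higher with an adjusted p of 0.00471 in the authors' deposited table. Ctnnal1, an alpha-catenin relative, was 3.23-fold higher (157 and 235 in WT, 768 and 499.5 in KO). Arvcf, a p120-catenin relative, was 3.21-fold higher (414 and 180.5 in WT, 1181 and 730.4 in KO). The Arvcf ratio was 5.30 without the deeper WT library, 2.31 without the shallower WT library and 2.46 without the deeper KO library. For Arvcf limma gave an adjusted p of 0.0913, or 0.00263 with depth rank as a block. In all 3 both KO libraries were above both WT libraries. The core catenins did not reach 2-fold. Beta-catenin (Ctnnb1) held 15457 and 13076 normalised reads in WT and 10963 and 8945 in KO, a ratio of 0.698, and the ratios of alpha-catenin (Ctnna1) and p120-catenin (Ctnnd1) were 1.35 and 0.867.

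**Figure D4:**
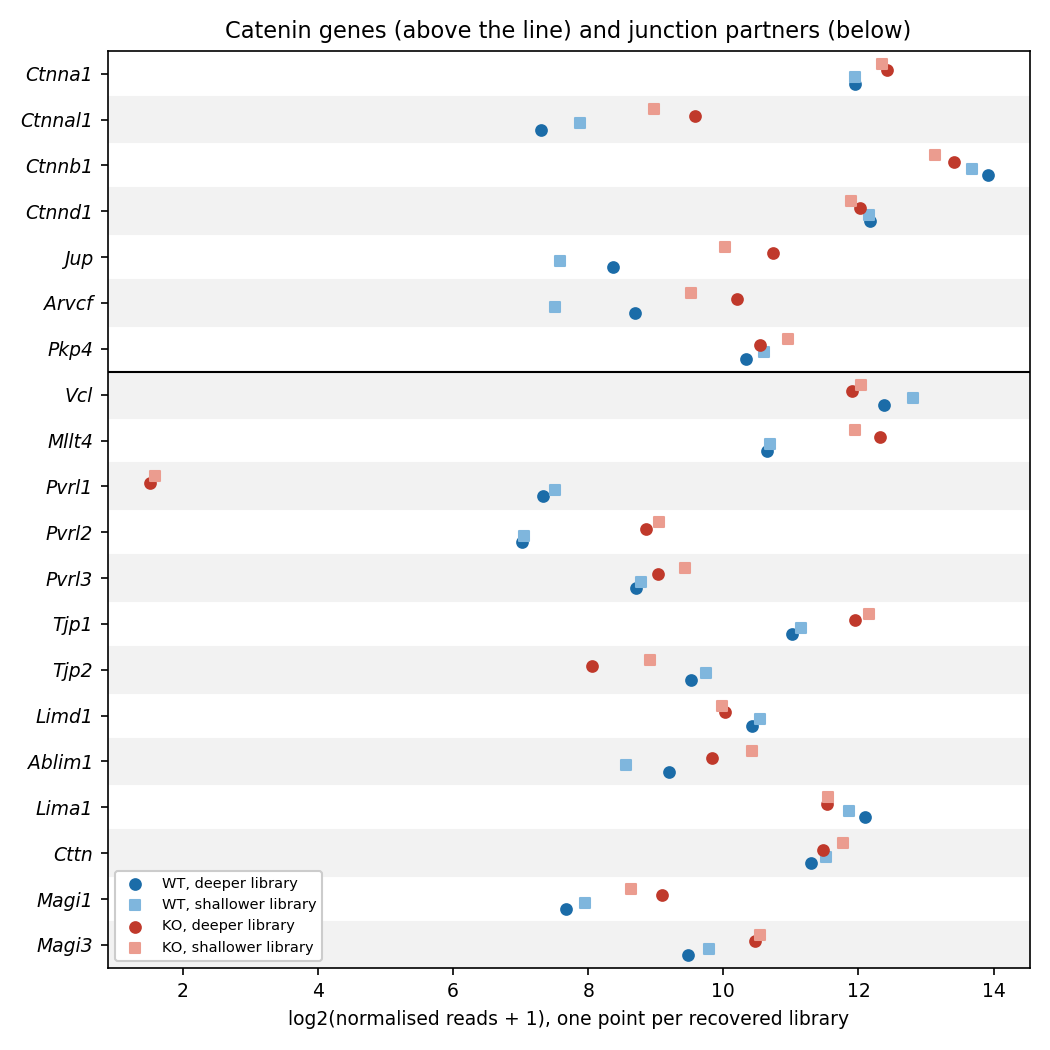
Normalised reads, as log2(normalised reads + 1), of the tested catenin genes (above the line) and junction partners (below) in each of the 4 recovered libraries (blue: WT, red: KO; circles: deeper library, squares: shallower library). Jup, Ctnnal1, Arvcf, Mllt4 and Pvrl2 are higher in both KO libraries, and Pvrl1 drops from 160.0 and 180.5 normalised reads in WT to 1.84 and 1.99 in KO.

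Among the 16 junction partners measured, 13 were tested, 4 called higher, 2 lower and 7 neither (against 8.92% and 8.56%), with a median log2 ratio of 0.51. By the authors' deposited table, 5 were higher and 2 lower, against 3.91% and 3.96% of symbols with reads. Nectins are immunoglobulin-like adhesion proteins that join cadherins at junctions, and 2 of them went in opposite directions. Pvrl1 (nectin 1) held 160.0 and 180.5 normalised reads in WT and 1.84 and 1.99 in KO, which is 88.9-fold lower (interval 34.4 to 328) with an adjusted p of 1.92e-15 in the authors' deposited table. Pvrl2 (nectin 2) was 3.82-fold higher, with 128 and 131 in WT and 465 and 527 in KO. The nectin adaptor afadin (Mllt4) was 2.78-fold higher, with 1602 and 1654 in WT and 5086 and 3952 in KO. Ablim1, an actin-binding protein, was 2.38-fold higher, but 1.95-fold with the shallower WT library left out and 1.91-fold with the shallower KO library left out.

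Other genes of the cadherin superfamily were mostly low. Of the 25 measured, 8 had no read and 5 were tested, with 1 called higher, 2 lower and 2 neither, against 8.92% and 8.56% of all tested genes. By the authors' deposited table, 0 were higher and 1 (Cdhr1) lower, against 3.91% and 3.96% of symbols with reads. Cdhr1, a photoreceptor cadherin, was 4.86-fold lower in KO (50.1 and 39.2 against 6.44 and 11.9), and Ret, a receptor kinase with cadherin-like domains, was 2.87-fold lower (45.3 and 91.9 against 11.0 and 36.8). The Ret ratio of 0.349 became 0.528 when the shallower WT library was left out and 0.537 when the deeper KO library was, both short of 2-fold, and 0.161 without the shallower KO library. The giant cadherin Fat4 was 2.21-fold higher (797 and 446 against 1843 and 899), but 1.72-fold with the shallower WT library left out and 1.45-fold with the deeper KO library left out. Fat1 was abundant in both lines and called neither, with a ratio of 0.570.

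Among 15 genes whose proteins are known to organise or silence the protocadherin clusters, all were tested, with 1 called higher, 0 lower and 14 neither, against the same 8.92% and 8.56%. By the authors' deposited table, 1 was higher and 0 were lower, against 3.91% and 3.96% of symbols with reads. The DNA methyltransferase Dnmt3a was 3.12-fold higher, with 272 and 309 normalised reads in WT and 970.4 and 843 in KO. The insulator protein Ctcf had a ratio of 0.837 and the cohesin subunit Stag1 one of 0.566. Methylation and binding at the clusters were not measured here.

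Of 10 proteases that shed or cut cadherins 7 were tested, with 0 called higher and 2 lower, against 8.92% and 8.56% of all tested genes. The authors' deposited table had 1 higher (Mmp9) and 1 lower (Mmp2) at its threshold, against 3.91% and 3.96% of symbols with reads. It gave an adjusted p of 0.157 for Psen2. The genes called lower were the gelatinase Mmp2, 4.30-fold lower (861 and 778 against 233 and 148), and the gamma-secretase subunit Psen2, 2.34-fold lower (134 and 126 against 53.3 and 57.7). Mmp9 stayed under the minimum, but its adjusted p in the authors' deposited table was 0.0206 with a ratio of 11.2, and its mean passed the minimum, with a ratio of 13.4, when the deeper KO library was left out. Among 12 signalling partners of protocadherins 10 were tested, with 1 called higher and 2 lower, against the same shares of all tested genes. In the authors' deposited table Wasf1 was higher, Ptk2b was lower and Marcks had an adjusted p of 0.544. The kinase Ptk2b, which gamma and alpha protocadherins are known to inhibit, was 13.6-fold lower, with 417 and 647 normalised reads in WT and 28.5 and 49.8 in KO. Marcks, a protein kinase C substrate downstream of gamma protocadherins, was 4.24-fold lower, though its WT libraries were far apart (2985 and 959 against 601 and 329). Its ratio of 0.236 became 0.485 without the deeper WT library and 0.156 without the shallower one. Wasf1, a subunit of the WAVE actin regulator that some protocadherins bind, was 2.06-fold higher, or 1.74-fold with the shallower WT library left out.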

How the data were processed

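Per the labels' protocols, polyA RNA of 1 WT and 1 KO sample was sequenced from both ends, 50 bases each. TopHat 1.4.0, mm9 and DESeq 1.10.1 are named in the submitters' processing notes without their role. The sources used here give neither the read counter nor the annotation. Per the file headers, the authors deposited for 23227 symbols a signal, the mean read count per genotype after division by size factors, with its fold ratio, its log2 value and the p-value and adjusted p-value of their comparison. The deposited p-values were copied, and the fold was recomputed from the means.

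Whole reads of 2 libraries per genotype were recovered from the means, with 1 solution for 100% of the 16386 genes in WT and 16350 in KO. The main call was the size rule (a minimum mean of 20 normalised reads, fold of 2, 95% exact interval). limma 3.58.1 in R 4.3.3, with trend, on log2(normalised reads + 1) with Benjamini-Hochberg adjustment over 11710 genes, was an alternative. The procedures were also run on simulated libraries, drawn independently and with changes larger than a fold of 2. That run cannot show how calls near a fold of 2, or libraries that deviate together, behave. The design had assumed 1 library per genotype and was kept. Other alternatives were the minimum, the scaling, the fold, leaving out each library, a pseudocount of 5 and depth rank as a block. That block rests on the data: differences between the deeper and the shallower library correlated across tested genes between genotypes (r = 0.571, genes not being independent replicates). Members were accounted for by name or by count, and up to 4 genes per list that passed either call were named, by size of ratio. Ctnnb1, Ctnna1, Ctnnd1, Fat1, Ctcf and Stag1, which passed neither, were named after their values were seen. Members and lists were chosen with earlier results of these data known. Untranslated regions came from GENCODE M21 on GRCm38 and were searched on the transcript strand, the other sequences from RefSeq (GRCm38.p6), which had a promoter window for 22 members.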

Additional observations from a re-analysis of the deposited data

How the results depend on the processing

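Of 249 member values under the alternatives 212 kept their side of the call, 28 no longer passed and 9 newly passed. Part of the 212 was fixed in advance. A minimum does not enter the ratio, so a lower or absent minimum could not change the call of a tested member. In 6 of the 249 values the sign changed, for Cdh2 and Cdh24, which were called neither (Cdh2 from 0.21 to as low as -0.09, Cdh24 from -0.02 to as high as 0.05). For Cdh genes the median log2 ratio of 0.09 became -1.08 without a minimum, 0.27 in the deeper and -0.061 in the shallower libraries alone (both chosen after seeing the data), and 0.01 to 0.20 with each library left out. The 1 Cdh gene called lower (Cdh23) became 2 genes with a minimum of 10, 4 without one, and 0 with a minimum of 50. The count was 0 in the shallower libraries or with limma at a pseudocount of 5, and 0 to 1 with each library left out. Over all tested genes, 1210 of 12532 were called lower with a minimum of 10 and 788 of 10742 with a minimum of 50. The number was 1577 of 17303 without a minimum and 1041 of 11655 in the shallower libraries. It was 1094 to 1297 with each library left out, and limma at a pseudocount of 5 called 4.27% lower. For clustered protocadherins the median of 0.62 became 1.09 with a minimum of 50, and 0.29 (without the deeper KO library) to 0.95 with each library left out. Their count of 5 higher became 2 with a minimum of 50, 14 without one, and 0 with limma at either pseudocount. With each library left out it was 3 to 5 (3 without the deeper KO library). Over all tested genes, 869 of 10742 were called higher with a minimum of 50 and 1459 of 17303 without one. With limma 4.61% were called higher, or 4.62% at a pseudocount of 5. With each library left out the size rule called 875 to 1326 genes higher. Their count of 2 lower became 0 with a minimum of 50 and 1 with limma at either pseudocount (4.14% and 4.27% of all tested genes). For protocadherins outside the clusters the median of 0.75 became 0.20 without a minimum, 0.23 in the deeper and 1.24 in the shallower libraries, and 0.40 to 1.01 with each library left out. Their count of 0 higher became 1 without a minimum, with scaling by total reads and with a fold of 1.5. It was also 1 in the shallower libraries and with depth rank as a block, and 0 to 1 with each library left out. Over all tested genes, scaling by total reads called 1137 of 11711 higher and a fold of 1.5 called 2030 of 11710. The shallower libraries called 1025 of 11655 higher. The cause of these shifts was not tested, apart from the number of genes a minimum admits. With depth rank as a replicate block, limma called 18.5% of all tested genes higher and 17.7% lower. Among Cdh genes this block gave 1 higher and 1 lower. Among clustered genes it gave 5 higher, with Pcdhgc3 in place of Pcdhgc5, and 2 lower. The labels give no replicate numbers, so this pairing is read from the data. Scaling moved the median of all tested genes to between -0.06 and 0.06. Depth limits members under the minimum, which held at most 75 reads each over the 4 libraries.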
